A study of Homo sapiens with 10 samples.

Results

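Wild-type (WT) HAP1 clone 2 was compared with WT HAP1 clone 11, each measured by RNA-seq without treatment and after H2O2. These are 4 of the 10 libraries of the series, taken by their labels and not by any measured value. HAP1 is a near-haploid human cell line derived from a leukaemia line, and the series set these WT cells beside clones in which CRISPR-Cas9 had disrupted MUTYH, OGG1 or both (DKO), DNA glycosylases that act on 8-oxoguanine and on the adenine mispaired with it. Treated cells received 100 µM H2O2 for 24 h. RNA of all libraries was isolated with an antioxidant and an iron chelator present. The 6 knockout libraries, 2 clones of each genotype and all untreated, served as a scale for how far clones of this line differ. The paper lists the same OGG1-knockout clone as the parent of both DKO clones, so the 6 are not all independent lineages.

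Cells of 1 line share a genome in the main, but a line is a population, and a clone grown from it carries forward the chromatin state and any genetic change of its founding cell. Differences between clones of the same genotype therefore set the background against which a knockout or a treatment is read. H2O2 is a small oxidant that damages DNA, lipids and proteins. Among the programmes it can engage are the p53 pathway, which responds to DNA damage, the ATF4 arm of the integrated stress response, which follows stress on translation and amino acid supply, and NRF2, which drives antioxidant genes.

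Total counts lay between 22283932 and 22674964 in the 4 WT libraries, so a level of 1 CPM, the read count scaled to the library total, rested on about 22.3 reads. OGG1 had 275 and 289 counts in untreated and treated clone 2 and 295 and 331 in clone 11, and MUTYH had 105 and 80 against 89 and 93. Neither gene was called between the WT clones (edgeR adjusted p of 0.739 for OGG1 and 0.952 for MUTYH). Of 18 haematopoietic markers, 14 were under 1 CPM in all 4 libraries and 4 had no count, so little of a blood cell programme was seen in a line of leukaemia origin. The summed level of these markers was 29.3 and 29.35 CPM in untreated and treated clone 2 and 58.1 and 54.1 CPM in clone 11. TAL1 alone held 2.09 and 2.01 CPM of this in clone 2 and 35.1 and 32.4 CPM in clone 11. The higher sum in clone 11 thus rested on this gene and not on the markers as a group. The 2 markers that passed the test are described with the genes below. Each clone is a single isolate, and its untreated and treated libraries are cultures of that isolate. The p-values thus measure the spread between these libraries, and whether the libraries were prepared together is not given in the labels. In bulk RNA, fewer cells of a type and less RNA per cell cannot be told apart.

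Clone 2 stood apart from all other libraries, also from clone 11. On the first principal component of log2 CPM over 16997 genes, which held 33.6% of the variance, clone 2 scored 54.6 untreated and 61.4 treated. Clone 11 scored -19.5 and 4.8, and the 6 knockout libraries lay between -41.0 and 9.8. Treatment moved clone 2 little on this axis and moved clone 11 by more, but the clones did not meet.

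**Figure D1:**
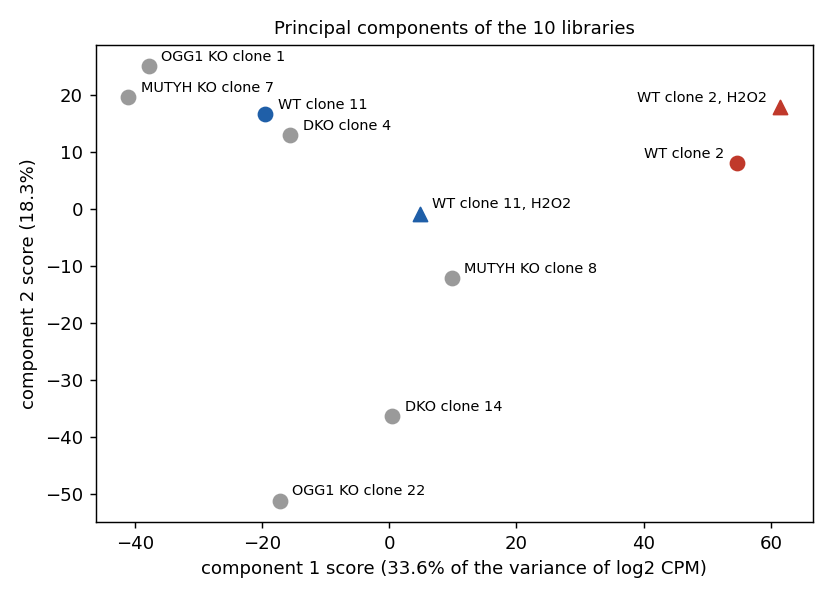
Scores of the 10 libraries on the first and second principal components of log2 CPM, with circles for untreated and triangles for H2O2-treated cultures, clone 2 in red, clone 11 in blue and knockout clones in grey. Both libraries of clone 2 lie at 54.6 and 61.4 on the first component, to the right of every other library, whose highest score is 9.8.

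The clones differed in the level of many genes. With treatment as a covariate, edgeR called 795 of 16997 genes tested (4.68%) with an adjusted p no higher than 0.05 and more than 1 log2 unit between the clones. Of these, 418 were higher in clone 2 (2.46% of the genes tested) and 377 were higher in clone 11 (2.22%). With an unadjusted P no higher than 0.05 and the same fold limit, 1045 genes (6.15%) differed. A log2 fold change beyond 3 was reached by 158 of the called genes. The fit takes its spread from 2 cultures per clone. When the spread was instead taken from all 10 libraries, including the differences between knockout clones of the same genotype, a single gene, KLF4, passed (adjusted p of 0.00375). Without the untreated library of clone 2, the call held 498 genes, 429 of them among the 795.

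Most called differences were present with and without H2O2. Untreated, 1357 genes differed by more than 1 on the log2 scale between the clones, and after H2O2 1309 did. Of these, 710 differed in both conditions in the same direction, which was 52.3% of the first set and 54.2% of the second, and 16 differed in opposite directions. Among the 795 called genes, 639 were beyond 1 in both conditions, a count that the call itself favours, since its spread is taken from the change of the clone difference with H2O2.

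**Figure D2:**
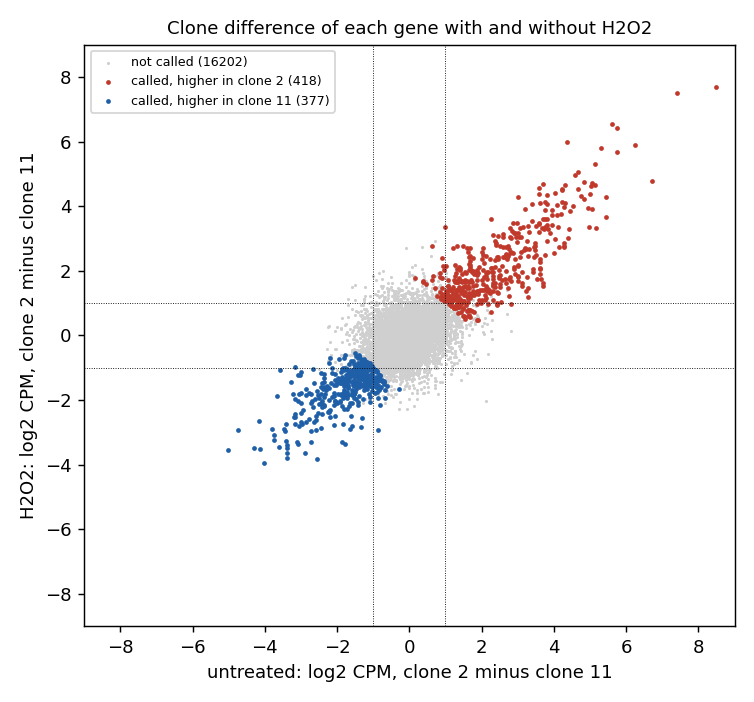
Difference of log2 CPM between clone 2 and clone 11 for each of 16997 genes, untreated on the horizontal axis and after H2O2 on the vertical axis, with called genes in red (418 higher in clone 2) and blue (377 higher in clone 11) and dotted lines at -1 and 1. The called genes run along the diagonal, and 639 of the 795 lie beyond 1 in both conditions.

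The levels in the knockout clones show on which side a difference lay. For 211 of the 418 genes higher in clone 2 (50.5%), both libraries of clone 2 were outside the range of the 6 knockout libraries while both of clone 11 were inside it. The same held for 170 of the 377 genes higher in clone 11 (45.1%). The reverse, with clone 11 alone outside, was seen for 8 and 11 genes (1.9% and 2.9%). Over all genes tested, clone 2 alone was outside for 8.8% and clone 11 alone for 1.1%. DLK1, an imprinted gene that encodes a non-canonical Notch ligand, was among the few in which clone 11 was the one outside. It had 78 and 108 counts in clone 2, 30 and 34 in clone 11 and 35 to 153 in the knockouts. The margin between clone 11 and the lowest knockout is within counting error.

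The strongest form of the difference was a gene read in clone 2 and nearly silent in clone 11. Requiring at most 3 counts in both libraries of one clone and at least 100 in both of the other, 7 genes were found, all of them read in clone 2, and 0 in the opposite direction. They were the transcripts AC034213.1, LINC02582 and AC105460.1 and the protein-coding genes TLX3, TMEM108, KCNQ5 and NLGN4X. None reached 100 counts in any knockout library, and 4 of the 7 had at most 3 counts in all 6. The overall number of genes with 100 counts or more was similar in the clones (11451 in clone 2 and 11507 in clone 11).

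TLX3, a homeobox transcription factor of sensory and brainstem neurons, lies on chromosome 5 (171309248 to 171312139, GRCh38, plus strand). It had 211 counts in untreated and 197 in treated clone 2, against 2 and 2 in clone 11 and 0 to 5 in the knockouts. TMEM108, a transmembrane protein gene on chromosome 3 (133038391 to 133397775), had 146 and 181 counts in clone 2 and 1 and 0 in clone 11. KCNQ5, a voltage-gated potassium channel on chromosome 6 (72621792 to 73198853), had 158 and 166 against 1 and 0. NLGN4X, a synaptic adhesion protein on chromosome X (5840637 to 6228867), had 196 and 106 against 3 and 0. The gap between the clones in these genes is what they were selected for. Summed over both libraries of a clone and set against a floor of 3 counts, LINC02582 was at least 233-fold higher in clone 2, the only one of the 7 with no count at all in clone 11.

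Promoter sequence is shown for 4 genes with large differences, 2 in each direction, chosen after their values were seen from those with a single promoter in the RefSeq table and no annotated exon in the window. The 250 bases before the RefSeq start are given on the gene's own strand (GRCh38.p14), with CG dinucleotides, the sites at which cytosine can be methylated, in capitals. TLX3 (chr5:171308998-171309247) and KLF4 (chr9:107489770-107490019) were higher in clone 2, and THBS1 (chr15:39580829-39581078) and LAMA2 (chr6:128882888-128883137) were higher in clone 11.
TLX3: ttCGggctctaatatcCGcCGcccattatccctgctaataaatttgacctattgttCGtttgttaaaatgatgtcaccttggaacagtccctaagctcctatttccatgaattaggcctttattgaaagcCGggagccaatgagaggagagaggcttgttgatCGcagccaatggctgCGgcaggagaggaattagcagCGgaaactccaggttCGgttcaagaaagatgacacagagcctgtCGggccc
KLF4: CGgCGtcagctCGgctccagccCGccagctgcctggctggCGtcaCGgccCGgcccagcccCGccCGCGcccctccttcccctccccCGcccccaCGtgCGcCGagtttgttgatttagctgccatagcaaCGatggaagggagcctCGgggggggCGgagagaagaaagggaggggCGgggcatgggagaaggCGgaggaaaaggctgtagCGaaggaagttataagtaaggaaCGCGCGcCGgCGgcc
THBS1: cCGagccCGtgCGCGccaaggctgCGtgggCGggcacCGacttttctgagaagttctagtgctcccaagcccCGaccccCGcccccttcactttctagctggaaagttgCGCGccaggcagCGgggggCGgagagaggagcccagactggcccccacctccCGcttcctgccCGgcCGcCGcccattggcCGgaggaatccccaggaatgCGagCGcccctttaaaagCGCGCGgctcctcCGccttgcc
LAMA2: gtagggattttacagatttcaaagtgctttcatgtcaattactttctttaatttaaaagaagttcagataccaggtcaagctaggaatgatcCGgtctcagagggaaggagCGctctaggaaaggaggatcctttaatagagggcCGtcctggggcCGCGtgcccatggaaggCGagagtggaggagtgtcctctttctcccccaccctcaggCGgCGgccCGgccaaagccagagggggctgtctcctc
KLF4 held 25 CG and THBS1 held 24, counts that 20.7% and 22.6% of 22031 promoters reached or passed. TLX3 held 10 and LAMA2 held 9, near the median of 10 over all promoters. Each direction thus had 1 CG-dense and 1 ordinary promoter among these 4. Methylation was not measured in these libraries.

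Among protein-coding genes with at least 5 CPM in the higher clone, the called gene with the smallest P on the side of clone 2 was ALDH1A2, the retinaldehyde dehydrogenase that makes retinoic acid. It had 1385 counts in untreated and 1650 in treated clone 2, 69 and 107 in clone 11, and 2 to 64 in the knockouts. On the log2 scale clone 2 was higher by 4.15 ± 0.16 (SE, adjusted p of 3.60e-08 by edgeR). KLF4, a Krüppel-like transcription factor used in reprogramming, changed little with H2O2 in either clone. It had 67.32 CPM untreated and 67.68 CPM treated in clone 2, and 4.75 and 5.50 CPM in clone 11. Its 1514 and 1483 counts in clone 2 lay far above the 107 and 125 of clone 11 and the 71 to 117 of the knockouts (log2 fold change 3.71 ± 0.15, adjusted p of 3.60e-08).

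A further 4 of the largest differences were in genes with few reads in clone 11. SYK, a tyrosine kinase of immune receptor signalling, had 214 and 263 counts in clone 2, 3 and 12 in clone 11 and 0 to 132 in the knockouts (log2 fold change 5.02 ± 0.36). FSTL4, a follistatin-like secreted protein, had 209 and 264 against 0 and 8. LPL, the lipase that hydrolyses triglycerides of lipoproteins, had 589 and 431 counts in clone 2 and 16 in each library of clone 11. GLYATL2, an acyltransferase, had 162 and 123 against 6 and 0. In all 4 of these genes clone 2 lay above the highest knockout library, which for LPL was as high as 366 counts. In none of them did the clones overlap, which their selection as the largest differences favours.

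VCAN, a large matrix proteoglycan, and GALNT5, a Golgi enzyme that starts O-glycosylation, also differed between the clones but lay inside the range of the knockouts. VCAN had 770 and 715 counts in clone 2 and 37 and 41 in clone 11 (log2 fold change 4.27 ± 0.20), and the knockout libraries reached from 33 to 1282. GALNT5 had 873 and 507 against 45 and 21, with knockouts from 5 to 1187. For these genes both WT clones fell inside the spread of the other clones.

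On the side of clone 11, the gene with the smallest P was PTGER3, a prostaglandin E2 receptor, with 3074 and 2708 counts in clone 11, 358 and 251 in clone 2 and 437 to 3447 in the knockouts (log2 fold change -3.24 ± 0.14, adjusted p of 5.56e-08). TAL1, a transcription factor of blood stem cells and the erythroid lineage, was 1 of the 2 called haematopoietic markers. TAL1 had 791 and 736 counts in clone 11, 47 and 44 in clone 2 and 50 to 1244 in the knockouts, a log2 fold change of -4.04 ± 0.19 (adjusted p of 1.01e-07). The other called marker, IKZF1, a lymphoid transcription factor, was higher in clone 2, with 37 and 18 counts against 0 and 1. THBS1, the matrix glycoprotein thrombospondin 1, had 713 and 844 counts in clone 11 and 20 and 68 in clone 2 (log2 fold change -4.19 ± 0.28), where the lowest knockout library had 288. LIN28A, an RNA-binding protein of pluripotent cells that blocks let-7 maturation, had 559 and 685 against 30 and 56. GLIS3, a zinc-finger transcription factor, had 436 and 503 against 20 and 42, below the 222 of the lowest knockout. Apart from IKZF1, both libraries of clone 2 lay below both of clone 11 in each of these genes, which their selection favours. OLIG1, EMP1, CNRIP1 and THSD7A completed the 8 largest differences in this direction, with log2 fold changes from -3.80 in CNRIP1 to -3.51 in THSD7A. Several of these genes overlap another gene or an antisense transcript, such as FSIP1 and THBS1-AS1 for THBS1, and strand was not stated for the counting, so reads of such partners cannot be told apart.

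**Figure D3:**
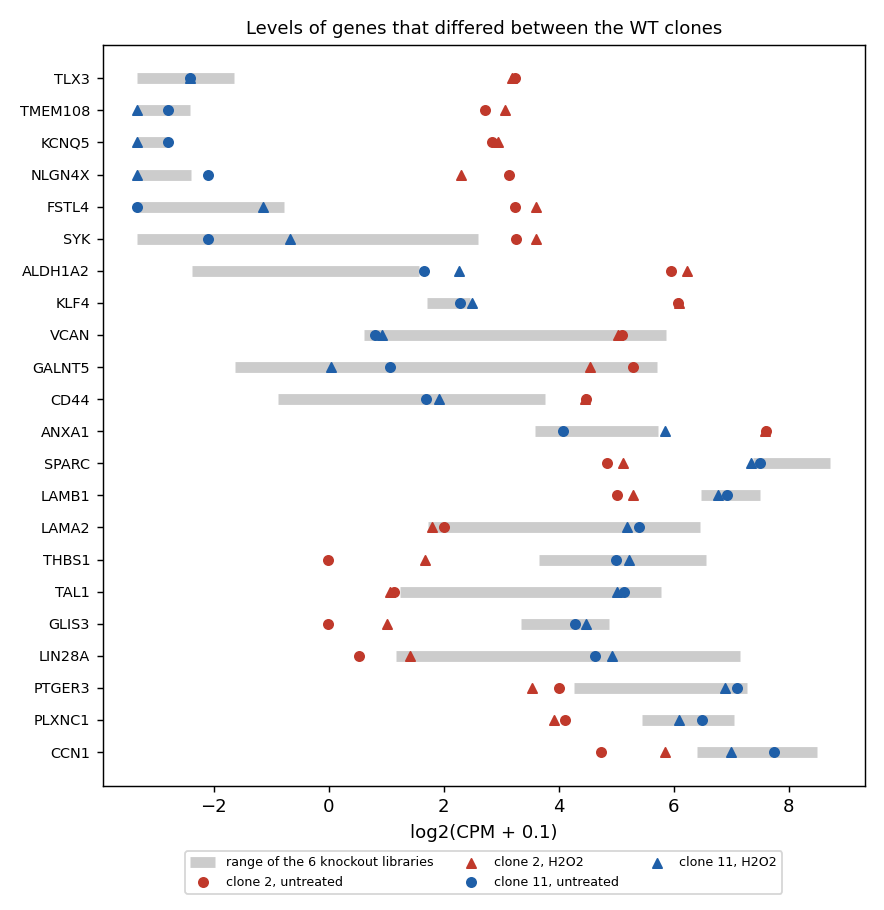
Level of 22 genes as log2(CPM + 0.1) in clone 2 (red) and clone 11 (blue), circles untreated and triangles after H2O2, with grey bars for the range of the 6 knockout libraries. For TLX3, TMEM108, KCNQ5 and NLGN4X clone 11 lies at the bottom with the knockouts and clone 2 far to the right, while for THBS1, GLIS3, SPARC and LAMB1 clone 2 lies to the left of the grey bar.

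Matrix genes were called mostly in one direction. Of 38 genes tested for collagens, laminins and other matrix proteins, 14 were called (36.8%, beside 4.68% of all genes), 12 of them higher in clone 11 and 2 (VCAN and LAMA3) higher in clone 2. The median log2 fold change of the 38 was -0.663, against 0.0 over all genes tested. For 9 of the 12 both libraries of clone 2 lay below every knockout library, a count favoured by their call as lower in clone 2. The share given above for all genes called higher in clone 11 is another measure. It also required both libraries of clone 11 inside the knockout range, with all 10 libraries scaled together. The 9 of 12 thus has no like share beside it and is not a result about matrix genes. Over leaving out single libraries the number called ranged from 11 to 20, and with the spread of all 10 libraries it was 0.

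SPARC, a collagen-binding glycoprotein, had 639 and 762 counts in clone 2, 4047 and 3671 in clone 11 and 3777 to 9114 in the knockouts (log2 fold change -2.44 ± 0.14, adjusted p of 4.24e-07). Further called members of the list are structural proteins of basement membranes. LAMB1, the laminin beta 1 chain, had 728 and 853 counts in clone 2 against 2742 and 2479 in clone 11 and at least 2024 in the knockouts. COL4A5 and COL4A6, which encode type IV collagen chains from a shared promoter region, had log2 fold changes of -1.21 ± 0.15 and -1.52 ± 0.17, and HSPG2, the heparan sulfate proteoglycan perlecan, had -1.19 ± 0.13. LAMA2, the laminin alpha 2 chain, had 88 and 74 counts against 941 and 827 (log2 fold change -3.43 ± 0.17), but the knockouts covered both, from 72 to 1911. LAMA3, the alpha 3 chain, ran the other way, with 122 and 140 counts in clone 2 and 65 and 51 in clone 11. Collagen cross-linking enzymes were also lower in clone 2, LOX with 370 and 359 counts against 833 and 913 and LOXL2 with 132 and 76 against 373 and 156. COL5A2, a fibrillar collagen chain, had 206 and 260 against 1513 and 979.

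CCN1 and CCN2, matricellular proteins that are induced rapidly by growth factors and by YAP, were lower in clone 2. CCN1 had 598 and 1265 counts in clone 2, 4815 and 2891 in clone 11 and 1941 to 7792 in the knockouts (log2 fold change -2.06 ± 0.31). The difference narrowed after H2O2, from -3.00 untreated to -1.14 treated. CCN2 had 63 and 268 against 583 and 547. Among adhesion receptors the 4 called members of 30 (13.3%) were all higher in clone 2. CD44, the hyaluronan receptor, had 500 and 479 counts against 71 and 84 and 10 to 298 in the knockouts, a log2 fold change of 2.68 ± 0.20. CADM1, CDH9 and NCAM2 were the others. The median of the 30 was nevertheless -0.329, opposite in sign to the called members. ANXA1, a phospholipid-binding protein with anti-inflammatory activity, had 4390 and 4190 counts in clone 2 and 377 and 1303 in clone 11 (log2 fold change 2.60 ± 0.30).

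Of 30 HOX genes tested, 4 were called (13.3%), all higher in clone 2. Those of the HOXC cluster on chromosome 12 were HOXC9, HOXC10 and HOXC4. HOXC9 had 108 and 111 counts in clone 2 and 18 and 12 in clone 11, HOXC10 had 262 and 209 against 47 and 85, and HOXC4 had 93 and 45 against 21 and 10. The remaining one was HOXB6, and 2 HOX genes were called without the untreated library of clone 2. HOXC9, HOXC4 and HOXC10 share exon sequence with HOXC6 or with antisense transcripts, so these values are not fully separate.

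Of 17 genes of retinoic acid synthesis and response, 4 were called (23.5%), 2 in each direction. The source enzyme ALDH1A2 and the receptor RARB, itself a direct target of retinoic acid, were higher in clone 2, RARB with 101 and 33 counts against 9 and 12. CYP26A1, which degrades retinoic acid and is also induced by it, was lower in clone 2, with 9 and 10 counts against 50 and 62. STRA6, the receptor for retinol uptake, was lower as well, with 93 and 72 against 221 and 187. The synthesising enzyme and the degrading enzyme thus differed in opposite directions.

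Of 59 genes of WNT, BMP, FGF and Hedgehog signals, 9 were called (15.3%), 4 higher in clone 2 and 5 higher in clone 11. BMP2 had 226 and 185 counts in clone 2 and 11 and 27 in clone 11, and BMP7 had 724 and 707 against 277 and 214. Their secreted antagonist NOG (noggin) was lower in clone 2, with 87 and 84 against 245 and 282. Among 55 guidance cues and receptors, 8 were called (14.5%), 3 higher in clone 2, among them the ephrin receptors EPHA5 and EPHB1, and 5 higher in clone 11, and 13 were called without the treated library of clone 11. PLXNC1, a semaphorin receptor, had 386 and 330 counts in clone 2, 2016 and 1547 in clone 11 and at least 997 in the knockouts (log2 fold change -2.29 ± 0.14).

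Ion channel genes, taken by symbol as whole families and not limited to channels of neurons, had 15 called of 73 tested (20.5%). Of these, 9 were higher in clone 2 and 6 in clone 11. With the untreated library of clone 2 left out 8 were called, 9 without the treated one or without untreated clone 11, and 11 without treated clone 11. Besides KCNQ5, the GABA receptor subunits GABRP and GABRB2 were higher in clone 2, with 47 and 40 counts against 1 and 0 and with 73 and 66 against 2 and 2, and the potassium channel KCNH5 had 183 and 169 counts in clone 2 against 8 and 11. The neurofilament genes NEFL, with 365 and 380 counts against 11 and 19, and NEFM, with 17 and 13 against 0 and 0, were also higher in clone 2, whereas the neuronal microtubule protein gene MAP2 was lower, with 59 and 85 against 205 and 221. These were 3 called of 9 tested neural and glial markers. Among markers of other cell types, THY1 and PDGFRA were called of 7 tested fibroblast and smooth muscle markers, and CLDN7 and CLDN3 of 8 epithelial markers, 1 in each direction in both lists. Without the treated library of clone 11 the fibroblast list had 5 called, and without the untreated library of clone 2 the epithelial list had 0. The clustered protocadherins PCDHB3, PCDHB5 and PCDHB12 were higher in clone 2 (3 of 25 called), as was the cancer-testis antigen PRAME (1 of 5). Of 435 ZNF zinc finger genes 8 were called (1.84%), 4 in each direction, with 5 called without treated clone 11 and 4 without untreated clone 2. Of 28 imprinted genes 4 were called (14.3%), TFPI2 and DLK1 higher in clone 2 and MEST and MKRN3 higher in clone 11, and 2 were called whichever of the 4 libraries was left out.

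Repair of oxidised bases and peroxide scavenging had no called member. No gene was called by edgeR among 27 of base excision repair, 10 of mismatch and direct repair, 28 of peroxide and superoxide scavenging, 23 heat shock chaperones, 33 of DNA replication, 32 of mitosis and 10 housekeeping genes. With 4.68% of all genes called, lists of this size would hold few or no called genes. Their lack of calls is thus not a result about them. The medians of these lists lay between -0.175 in the chaperones and 0.164 in the housekeeping genes. The NRF2 targets had 2 called of 23 (8.7%, beside 4.68% of all genes), and 1 without untreated clone 2 or treated clone 11 and 5 without untreated clone 11. They were AKR1C1 with 7 and 14 counts in clone 2 against 31 and 74 in clone 11, and ABCC2 in the other direction. Of 30 interferon-stimulated genes 1 was called, OAS2, higher in clone 11, and 0 without untreated clone 2 or treated clone 11.

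Small shifts were shared by most members of some lists, of which the ribosomal and respiratory chain lists had no member called. Over all genes tested, 8503 of 16997 were higher in clone 2. Of 63 cytosolic ribosomal protein genes, 62 were higher in clone 2, with a median of 0.205 on the log2 scale, and of 47 nuclear genes of the respiratory chain 45 were higher (median 0.206). The ribosomal median was 0.317 untreated and 0.073 treated. Cholesterol synthesis genes had a median of 0.416, with 22 of 26 higher in clone 2 and 2 called, among them INSIG1, a feedback regulator of sterol synthesis (2977 and 1772 counts against 1509 and 757). Without the untreated library of clone 2 this list had 0 called, and 1 without the treated library of clone 11. Hypoxia-associated EGLN3 and SLC2A3 were lower in clone 2 and ALDOC was higher (3 of 33 called).

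Replication-dependent histone transcripts and mitochondrial tRNAs and rRNAs, which lack a long poly(A) tail, were compared as a sign of how libraries were made. Of 22 replication-dependent histone genes tested, 21 were lower in clone 2 (median -0.696), and 5 were called (22.7%, beside 4.68% of all genes). H2AC6 had 20 and 47 counts in clone 2 and 56 and 153 in clone 11, while H2AC20 had 30 and 21 against 7 and 6. H4C14 and H4C15 have near-identical sequence, so their reads cannot be assigned with certainty. No histone gene was called without the untreated library of clone 2 or without the treated library of clone 11, and 3 or 4 were called without the others. Of 22 mitochondrial tRNA genes, 10 were called, beside 4.68% of all genes. All 10 were lower in clone 2, for example MT-TH with 56 and 62 counts against 328 and 252. The tRNA sum was 3848 and 3563 counts in untreated and treated clone 2 and 5908 and 4238 in clone 11. The knockouts covered both clones, from 2931 to 8279. The mitochondrial rRNA sum was 77660 in untreated clone 2 and 122498 in untreated clone 11, and 68859 and 75003 after H2O2, and neither of the 2 rRNA genes nor any of the 13 mitochondrial protein genes was called by edgeR. In the knockouts the same rRNA sum ran from 66427 to 164490. How far library preparation or RNA quality took part in the clone difference was not tested.

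Differences between knockout clones of the same genotype were set beside the WT difference, as a description with no test. Across 16997 genes the untreated WT difference correlated with the difference between the MUTYH_KO clones 8 and 7 (r = 0.381), the OGG1_KO clones 22 and 1 (r = 0.267) and the DKO clones 14 and 4 (r = 0.212), pairs that share no library with it. The treated clone difference had r of 0.200, 0.009 and -0.042 with the same pairs. Over the 795 called genes, the values for the untreated difference were 0.431, 0.062 and -0.071. The sign of each r depends on which clone of a pair is subtracted, and this order was a choice. Positive values in all pairs thus do not show a shared direction. The clone 8, 22 and 14 libraries, from which their partners were subtracted, also had the lower mitochondrial rRNA sum of each pair. The same held for the WT clone from which the other was subtracted. What part this had in the correlations was not tested.

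Along the chromosomes, the long arm of chromosome 1 read higher in clone 2. All 9 windows of 10 Mb from 150 to 250 Mb with at least 20 tested genes had a median log2 fold change between 0.195 and 0.345. In these windows, 72.4% to 82.1% of the genes were higher in clone 2. The medians were 0.243 to 0.376 in the untreated pair and 0.213 to 0.289 after H2O2. Set against the median of all libraries, both libraries of clone 2 lay at 0.133 to 0.313, and the knockout libraries between -0.185 and 0.06. The 12 windows of the same chromosome up to 120 Mb had medians from -0.144 to 0.035. Over 257 windows of the genome the SD of the fitted medians was 0.089. The 7 windows with a fitted median beyond 0.25 were all on chromosome 1. In a single pair, windows elsewhere also passed this value, such as 0.308 untreated on chromosome 8 and 0.302 after H2O2 on chromosome 9. In the 9 windows 22 of 568 genes were called (3.87%), 19 of them higher in clone 2. DNA copy number was not measured in these libraries, and PHLDA3 and BTG2 below lie on this arm.

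**Figure D4:**
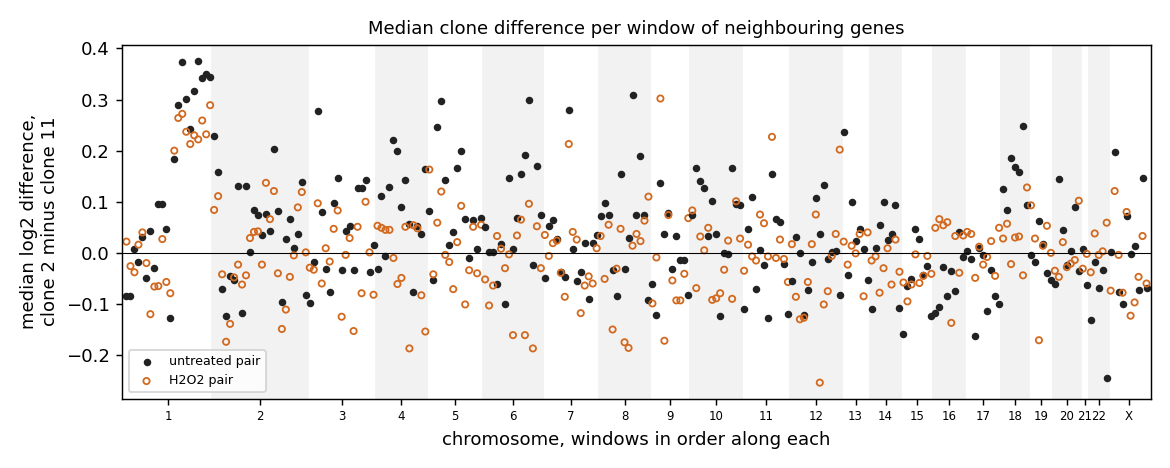
Median difference of log2 CPM between clone 2 and clone 11 over the genes of each 10 Mb window, in order along each chromosome, with filled points for the untreated pair and open points for the H2O2 pair. The second part of chromosome 1 forms a plateau, at 0.243 to 0.376 untreated and 0.213 to 0.289 after H2O2. Single points on other chromosomes reach as far, up to 0.308 untreated on chromosome 8 and 0.302 after H2O2 on chromosome 9. The fitted medians over both pairs, which are not plotted, lie from -0.182 to 0.222 on other chromosomes.

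H2O2 changed fewer genes than the clone. With clone as a block, 146 of 16997 genes (0.859%) were called for H2O2, 101 higher and 45 lower. Without the block 0 were called, and 0 when any 1 of the 4 libraries was left out, a fit that also lacks the block. GDF15, a secreted stress cytokine, rose in both clones, from 10 to 537 counts in clone 2 and from 8 to 291 in clone 11 (log2 fold change 5.50 ± 0.29). PPP1R15A (GADD34), the phosphatase subunit that ends the integrated stress response, rose from 280 to 1917 and from 418 to 1826. A log2 response above 1 was seen for 322 genes in clone 2 and 351 in clone 11, and for 99 in both.

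Whether the clones responded differently was tested as the difference of the 2 responses. With 1 library for each clone and treatment no residual was left among them, so the spread came from the knockout clone pairs and the WT libraries were assumed to vary like those. Those pairs hold lasting differences between clones, which cancel within a response, so this spread can be too wide. The common coefficient of variation was 0.257 in this fit and 0.107 in the clone fit. No gene of 19072 was called, by edgeR or by DESeq2, which does not show that the clones responded alike. An unadjusted P no higher than 0.05 was reached by 111 genes, 105 of them (0.551%) with a difference beyond 1. The following responses are therefore given as values and not as differences that passed a test.

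Of 23 p53 targets tested, 21 had the larger response in clone 2, against 47.6% of all genes, and their median response was 0.998 on the log2 scale in clone 2 and 0.097 in clone 11. A response beyond 1 was reached by 11 of 23 in clone 2 and 3 in clone 11, beside 1.89% and 2.07% of all genes. In treated clone 2, 21 of the 23 were above every knockout library, 4 were in treated clone 11, and among all genes these shares were 22.9% and 19.8%. Over both clones together, 5 of the 23 were called for H2O2, beside 0.859% of all genes.

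CDKN1A, the cyclin-dependent kinase inhibitor p21, rose from 177 to 4283 counts in clone 2 and from 89 to 430 in clone 11, a log2 response of 4.62 against 2.23 (unadjusted P of the difference 0.177). The knockout libraries held 80 to 435 counts, so treated clone 11 was inside their range and treated clone 2 far above. PHLDA3, an inhibitor of AKT, went from 262 to 1208 in clone 2 and from 170 to 183 in clone 11 (unadjusted P of 0.0135). MDM2, the ubiquitin ligase that degrades p53, went from 2021 to 5356 and from 1749 to 2056 (unadjusted P of 0.0212). BTG2, an antiproliferative gene, went from 720 to 2193 and from 726 to 584. SESN1, a stress-induced regulator of mTORC1, went from 267 to 845 in clone 2 and from 238 to 253 in clone 11. FAS, the death receptor, went from 101 to 347 and from 77 to 113. In these 6 genes the untreated clones lay within 1 log2 unit of each other, and the treated libraries lay further apart than the untreated ones.

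Not all members differed in this way. GADD45A, a growth arrest gene, rose in both clones, from 177 to 1412 counts and from 139 to 614. SESN2, a target of p53 and of ATF4, rose from 868 to 1899 and from 728 to 1692. CCNG1 and TIGAR differed by less than 0.1 between the clones in their log2 response.

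Over both conditions 6 p53 targets of 23 were called between the clones (26.1%), all higher in clone 2 (CDKN1A, PHLDA3, FAS, ZMAT3, SESN1 and BBC3), with larger differences after H2O2 than before. That of CDKN1A was 0.98 untreated and 3.36 treated, and that of ZMAT3 was 0.37 and 1.69. None of the list was called with DESeq2 or with the spread of all 10 libraries.

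Of 36 genes of ATF4 and the integrated stress response, 31 had the larger response in clone 11, as did 8896 of all 16997 genes, and the median response was 0.147 in clone 2 and 0.755 in clone 11. A response beyond 1 was reached by 8 in clone 2 and 14 in clone 11, beside 1.89% and 2.07% of all genes. Over both clones, 10 of the 36 were called for H2O2, beside 0.859%. Other lists also had most members with the larger response in clone 11. Among them were cytosolic ribosomal proteins (60 of 63), the nuclear respiratory chain (38 of 47), peroxide scavenging (20 of 28) and chaperones (17 of 23). CHAC1, a glutathione-degrading enzyme, went from 411 to 338 counts in clone 2 and from 119 to 532 in clone 11 (unadjusted P of 0.0239). DDIT4, an inhibitor of mTORC1, went from 577 to 356 and from 116 to 396. TRIB3, a pseudokinase induced by ATF4, went from 1066 to 1785 and from 773 to 2839 (unadjusted P of 0.0134). DDIT3 (CHOP), a transcription factor of unresolved stress, went from 272 to 551 and from 196 to 736.

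The clones also differed in the untreated level of this group. The median clone difference of the 36 was 0.321 untreated and -0.176 treated. Above every knockout library were 13 of 36 in untreated clone 2 but 0 in untreated clone 11, beside 15.5% and 7.5% of all genes. In these counts WT levels were scaled over the 4 WT libraries and knockout levels over all 10, so close cases are uncertain. AARS1 in untreated clone 2 had 300.1 CPM, against a highest knockout level of 299.7. ATF4 transcript had 12841 and 12592 counts in clone 2 and 9296 and 11211 in clone 11. INHBE, an activin subunit, was called between the clones with 7 and 49 counts in clone 2 and 9 and 164 in clone 11, a log2 difference of -0.29 untreated and -1.65 treated. The NRF2 targets, with 19 of 23 larger in clone 11 and medians of 0.071 and 0.507 in clone 2 and clone 11, and the immediate early genes, with 20 of 28 larger in clone 11 and medians of 0.619 and 0.963, had the same direction. Of these immediate early genes 4 were called between the clones (5 without untreated clone 2, 6 without untreated clone 11, 7 without treated clone 11 and 8 without treated clone 2), KLF4 higher in clone 2 and CCN1, CCN2 and DUSP6 higher in clone 11.

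**Figure D5:**
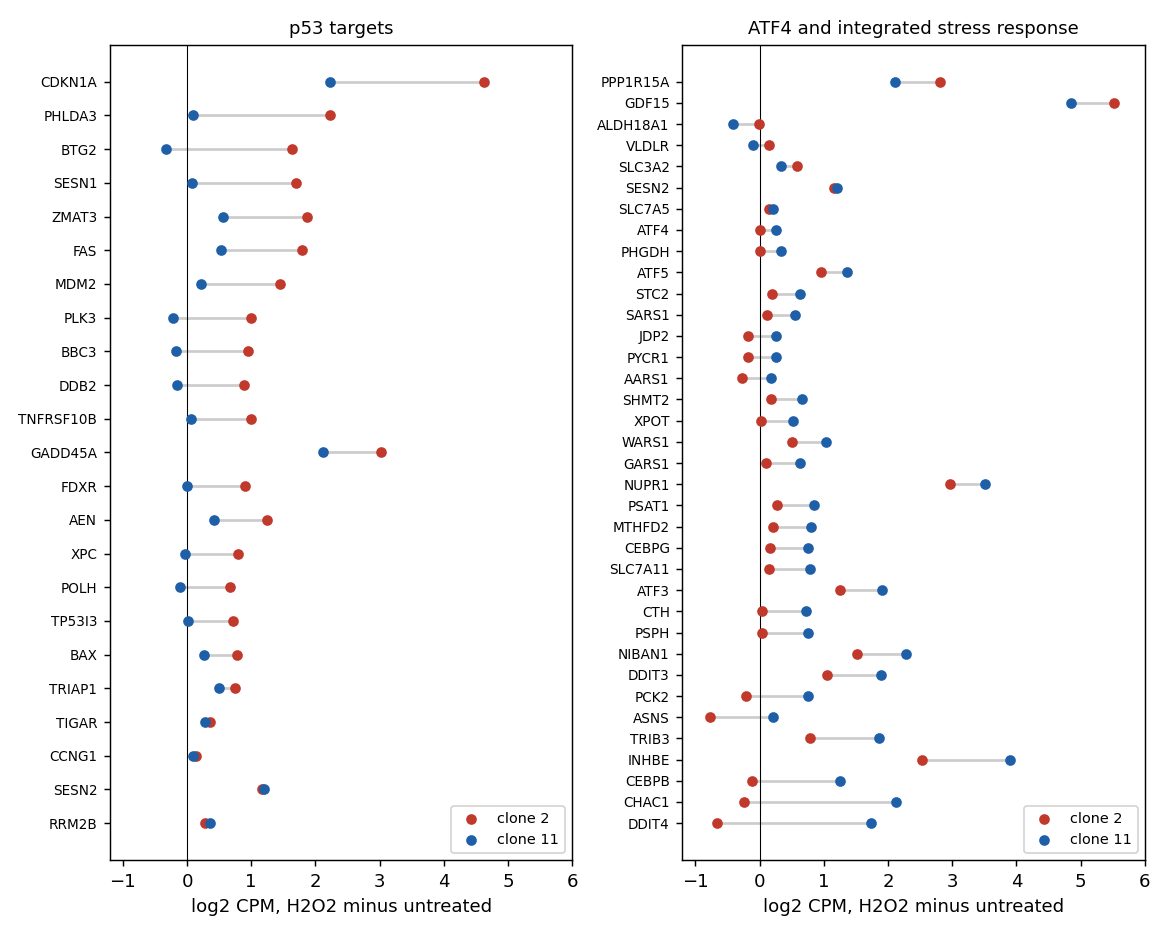
Response to H2O2 as the difference of log2 CPM between treated and untreated cultures, in clone 2 (red) and clone 11 (blue), for 23 p53 targets on the left and 36 genes of the ATF4 and integrated stress response on the right, sorted by the difference between the clones. Red lies to the right of blue for 21 of the 23 p53 targets, and blue to the right of red for 31 of the 36 stress response genes; each point rests on 1 library pair.

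Other genes with the largest response differences at 5 CPM or more included INKA2, an inhibitor of the kinase PAK4, with 57 and 288 counts in clone 2 and 137 and 128 in clone 11 (unadjusted P of 0.00496). LCAT, the enzyme that esterifies plasma cholesterol, had 97 and 257 against 228 and 149. NRP2, a neuropilin, had 158 and 168 against 66 and 317, and HOXB9 had 197 and 214 against 55 and 312. BEST1, a chloride channel gene that overlaps FTH1, had 42 and 145 against 8 and 116. In NRP2 and HOXB9 clone 2 was steady and clone 11 moved from below to above it. Among 11436 genes with at least 5 CPM in a library of each clone, 117 differed by more than 1 in their response, 74 towards clone 2 and 43 towards clone 11.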

How the data were processed

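RNA of 10 HAP1 libraries was sequenced on the DNBseq platform. The authors aligned reads with HISAT2 2.2.1 after FastQC 0.11.9, per the submitters' processing notes, and the deposited values are raw gene counts made with featureCounts of Rsubread on an Ensembl GRCh38 annotation. The strand setting was not given in the sources used here. The notes also name edgeR 3.42.4 and R 4.2.2. Both untreated WT columns are present with identical values in a second table and were used once. Of 59453 gene symbols, 38434 (64.6%) were matched to GENCODE 44 (GRCh38) for position and overlap.

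Counts were analysed with edgeR 4.0.16 in R 4.3.3 (filterByExpr, TMM scaling, quasi-likelihood F-test, Benjamini-Hochberg adjustment). The clone difference and the H2O2 effect came from 1 fit of the 4 WT libraries with clone and treatment as terms, which leaves 1 residual degree of freedom. The clone is thus the replicate block of the H2O2 effect, and the pairing is that both cultures come from the same clone. The response difference came from a fit of all 10 libraries with 3 residual degrees of freedom, all of them from knockout clone pairs. Responses and pair differences are differences of log2 CPM with a prior count of 2. Counts of list members above or below every knockout library compared WT CPM scaled over the 4 WT libraries with knockout CPM scaled over all 10 libraries. The shares of all genes beside them were made in the same way. Genes were called where the adjusted p was no higher than 0.05 and the groups lay more than 1 log2 unit apart. Chromosome windows of 10 Mb held at least 20 tested genes. The scripts were tested on simulated data. DESeq2 1.42.0, other scaling and filters, the spread of all 10 libraries and leaving out libraries were tried as alternatives.

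Genes were named by rule. Among called protein-coding genes with a mean of at least 5 CPM in the higher clone these were the 8 with the largest fold change and the 4 with the smallest P in each direction. To these were added up to 4 called members of each gene list, the genes switched between at most 3 and at least 100 counts, the 6 with the largest response difference in each direction among genes with at least 5 CPM, and OGG1 and MUTYH. Other members of a list that are named, such as SPARC, LAMB1, MDM2 and TRIB3, were chosen after their values were seen. The comparison, the lists and the rule were chosen with earlier results of these data known. Total counts per WT library were 22283932 to 22674964, and 0 columns were left without a sample.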

Additional observations from a re-analysis of the deposited data

Results flagged for a closer look

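Among genes chosen for a large response difference, 7 moved in opposite directions in the clones after H2O2, with 1 untreated and 1 treated library per clone. None was called by the edgeR test of the response difference, and a response close to 0 can have either sign by counting error alone. The values below are responses on the log2 scale, treated minus untreated, and the difference is clone 2 minus clone 11.

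Larger in clone 2 were INKA2 (2.33 in clone 2 and -0.11 in clone 11, a difference of 2.44), CCN2 (2.09 and -0.1, a difference of 2.2), LCAT (1.42 and -0.62, a difference of 2.04) and BTG2 (1.64 and -0.33, a difference of 1.97). Larger in clone 11 were DDIT4 (-0.66 in clone 2 and 1.74 in clone 11, a difference of -2.4), CHAC1 (-0.24 and 2.13, a difference of -2.37) and ANXA1 (-0.03 and 1.77, a difference of -1.8).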

How the results depend on the processing

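The clone difference of 795 genes became 487 with the DESeq2 Wald test, 420 without the treatment covariate, 1 with the spread of all 10 libraries and 498 to 670 with 1 library left out. It was 766 with DESeq2 size factors, 557 with at least 10 counts in every library, 817 with the newer edgeR quasi-likelihood fit and 942 with no filter, which are within 1.5 times. The H2O2 call of 146 genes became 71 with the Wald test, 2 with the spread of all 10 libraries, 266 with no filter and 473 with an unadjusted P of at most 0.05. Without the replicate block it was 0, and with 1 library left out it ranged from 0 to 0. The response difference stayed at 0 under every alternative run except the unadjusted P, which gave 105, and it could not be fitted without a WT library. The fits without 1 library have no treatment term and set unequal mixes of treated and untreated cultures against each other, so genes that answer H2O2 shift in them by construction. In these fits CDKN1A ranged from -0.526 to 4.677 and INHBE from -3.576 to 1.649, while in both conditions CDKN1A was higher and INHBE lower in clone 2. The cause of the other changes was not tested.

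Each clone and treatment had 1 library, so the spread in the clone fit rests on 1 residual degree of freedom and the shrinkage across genes. At about 22.3 reads per CPM, genes under 1 CPM carry large counting error, and with 1 library left out the called members of many lists changed by over 1.5 times. Imprinted genes went from 4 to 2, ion channels from 15 to 8 to 11, histones from 5 to 0 to 4 and p53 targets from 6 to 0 to 11, the last affected by the missing treatment term. The counts ranged from 0 to 3 for cholesterol synthesis and for epithelial markers, from 0 to 1 for interferon-stimulated genes, from 1 to 5 for NRF2 targets, from 2 to 5 for HOX genes and from 2 to 6 for the integrated stress response.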
